A study of Mus musculus with 8 samples.

Results

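Guanylate-binding proteins (GBP) and immunity-related GTPases (IRG) are large GTP-hydrolysing proteins whose genes are switched on by interferons. The group described here holds 10 of them (Gbp2, Gbp3, Gbp4, Gbp5, Gbp6, Gbp7, Gbp9, Irgm1, Irgm2 and Igtp), taken by gene symbol from the 23361 genes of the deposited expression table. Their mRNA levels were compared between regulatory T cells induced in culture (iTreg) that carry the surface receptor neuropilin-1, called Nrp-1+ iTreg, and those that lack it, called Nrp-1- iTreg. All 10 members were found, and 9 of the 10 were lower in Nrp-1+ iTreg, by 9.66% to 25.4% of the level in Nrp-1- iTreg, where 20.0% of the 10467 genes tested were lower and 40.9% differed in either direction. With the libraries rescaled to an equal sum without short RNA genes, 7 of the 10 were called lower.

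Both groups came from wild-type Foxp3-RFP reporter mice, of the B6 strain by the study's methods. In these mice a red fluorescent protein marks cells that express Foxp3, the transcription factor that defines regulatory T cells. Naive CD4+ T cells (CD44low CD62Lhigh) were cultured with anti-CD3/CD28 microbeads, IL-2 at 50 U/ml and TGF-β at 2 ng/ml, and viable Foxp3-RFP+ cells were then divided by Nrp-1. The labels give a culture of 3 days in one field and day 5 in another. Each group had 4 libraries, which the labels number as biological replicates 1 to 4. The study's methods describe young adult mice. The labels do not state how many mice stand behind a library, so p-values measure the spread between these libraries.

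Interferon-γ binds a receptor made of Ifngr1 and Ifngr2, the kinases Jak1 and Jak2 pass the signal on, and transcription factors that include Irf1 turn on GBP and IRG genes. In infected cells the proteins gather on the vacuoles of intracellular bacteria and parasites. There GBPs take part in breaking the vacuole and in inflammasome activation. Irgm1, Irgm2 and Igtp (Irgm3) form the regulatory IRG class, which sits on the cell's own membranes and keeps effector IRGs inactive there. In T cells Irgm1 is known for its part in survival after activation.

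The members lay in 3 groups in the genome (GENCODE M21 annotation, build GRCm38, the build that the submitters' processing notes name). Gbp5, Gbp7, Gbp3 and Gbp2 lay in this order on the plus strand of chromosome 3, with Gbp1 between Gbp3 and Gbp2, within 144031 bases (142493978 to 142638008). Gbp9, Gbp4 and Gbp6 lay on the minus strand of chromosome 5 within 216069 bases (105077630 to 105293698). Igtp and Irgm2 were neighbours on the plus strand of chromosome 11 (58199556 to 58222782), with Irgm1 on the minus strand of the same chromosome (48861968 to 48871683).

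RefSeq promoters (build GRCm38.p6, 250 bases before the transcription start) were held for 7 of the 10 members. Of these, 7 contained the core of the interferon-stimulated response element, GAAANNGAAA or on the other strand TTTCNNTTTC, to which interferon regulatory factors bind. The same core was present in 2.98% of all 32851 promoters and in 3.26% of the 7700 genes tested here that have a promoter entry. The 30-base windows that hold the matches are shown because the 7 members with a promoter entry have the core in common. The members were picked as interferon-inducible genes, so an interferon element is not independent of that choice. Each is written 5′ to 3′ on the gene's strand, with the matching letters in capitals.
Gbp2: aggaactcttttagTTTCACTTTCactgtc
Gbp3: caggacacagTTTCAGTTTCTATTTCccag
Gbp5: ctgaacttgtgtagTTTCAATTTCagttta
Gbp7: gcctgtgtgtgcagTTTCAGTTTCagttct
Irgm1: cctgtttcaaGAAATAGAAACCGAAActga
Irgm2: catttccaggaactGAAACTGAAAgctgtt
Igtp: catttctaggaactGAAACTGAAAgctgtt

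The windows lie at chr3:142620590-142620619 for Gbp2, chr3:142559989-142560018 for Gbp3, chr3:142496755-142496784 for Gbp5 and chr3:142530269-142530298 for Gbp7, all on the plus strand. Those of the IRG genes are chr11:48871431-48871460 on the minus strand for Irgm1, and chr11:58214899-58214928 and chr11:58199508-58199537 on the plus strand for Irgm2 and Igtp. Gbp3 and Irgm1 each held 2 overlapping matches. RefSeq lists 2 starts for Gbp3, of which the first was used, and the promoter of the other held 0 matches. The windows of Irgm2 and Igtp were identical at 29 of 30 bases. A gamma-activated site, TTCNNNGAA, which reads the same on both strands and is known from promoters that respond to interferon-γ, was found in 4 of the 7 promoters (Gbp5, Gbp7, Irgm2 and Igtp), against 7.02% of all promoters. In Irgm2 and Igtp it began 11 bases before the response element, within the windows shown, and in 0 of the 4 promoters did it overlap that element. The starts that RefSeq gives Gbp2, Gbp3, Gbp5, Irgm1 and Irgm2 lie inside the GENCODE spans of these genes, and the bases after that of Irgm2 were not matched to a GENCODE transcript of the gene. A match of letters is a description of these windows and does not show that a factor was bound.

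Expression is given in FPKM, fragments per kilobase of transcript and per 1e+06 mapped fragments, as the authors deposited it, so levels of different genes may be set beside each other. Library depth, read from the steps between low values, differed by 0.810 to 1.24 of the first Nrp-1+ iTreg library, or about 1.54e+07 to 2.34e+07 fragments. MicroRNA, snoRNA and other short RNA genes held between 1.77% and 43.9% of a library's summed FPKM, with more than 30% in 3 libraries (Nrp-1+ iTreg replicates 2 and 4 and Nrp-1- iTreg replicate 1). Calls lost in the other 5 libraries are given beside the genes they touch. Nrp1 itself lay between 20.4 and 22.0 FPKM in Nrp-1+ iTreg and between 4.70 and 5.31 FPKM in Nrp-1- iTreg (exact two-sided permutation test, p = 0.0286, the smallest that 4 libraries against 4 allow). The cells were divided by Nrp-1, so this only checks the labels against the sort.

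The 3 regulatory IRG genes were among the highest of the members. Igtp, whose protein lies on the endoplasmic reticulum and lipid droplets, was at 169.8, 169, 163 and 163 FPKM in Nrp-1+ iTreg replicates 1 to 4 and at 196, 193, 207 and 202 FPKM in Nrp-1- iTreg. The groups did not overlap, and the means of 166 ± 3.76 FPKM and 199.7 ± 6.25 FPKM (SD, n = 4) differed by -16.8% (log2 difference -0.26, SE 0.03, limma with Benjamini-Hochberg adjustment over all tested genes, adjusted p = 0.000172). Irgm1 was at 46.0, 42.2, 41.7 and 39.8 FPKM in Nrp-1+ iTreg and at 52.4, 54.1, 55.6 and 52.4 FPKM in Nrp-1- iTreg. Its highest Nrp-1+ library was below every Nrp-1- library, with a difference of -20.9% (log2 difference -0.33, SE 0.04, limma adjusted p = 0.000535). Irgm2, linked to the Golgi apparatus, stood at 25.0, 24.2, 24.7 and 24.2 FPKM against 30.6, 30.6, 31.2 and 30.4 FPKM. The libraries within each group hardly differed, and Irgm2 had the smallest adjusted p of the 10 members (-20.1%, log2 difference -0.31, SE 0.02, limma adjusted p = 9.7e-06).

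Of the 7 GBP genes, Gbp2 was the highest, at 69.0, 66.0, 63.1 and 60.0 FPKM in Nrp-1+ iTreg, against 78.4, 80.1, 77.8 and 78.0 FPKM in Nrp-1- iTreg. Gbp2 attaches to membranes through a lipid (prenyl) anchor, as does Gbp5. The decrease of Gbp2 was -17.9% (log2 difference -0.28, SE 0.04, limma adjusted p = 0.000887). Gbp6 was the lowest member and had the largest decrease of the 10, with 7.84, 7.82, 7.02 and 7.02 FPKM against 9.99, 9.68, 9.34 and 10.8 FPKM (-25.4%, log2 difference -0.38, SE 0.05, limma adjusted p = 0.00086). Gbp6 shares 43.8% of its 50-base words with Gbp10 in the GENCODE transcripts. How the authors' counting divided fragments between the pair is not given, so the value of Gbp6 is uncertain. Gbp10 was listed at 0.337 to 0.516 FPKM in Nrp-1+ iTreg and at 0.825 to 1.34 FPKM in Nrp-1- iTreg.

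Gbp9 and Gbp4, the other members on chromosome 5, were also lower, with no overlap between the groups. Gbp9 was at 8.13, 8.64, 7.83 and 8.12 FPKM against 10.4, 9.99, 10.8 and 10.1 FPKM (-20.9%, limma adjusted p = 0.000365). Gbp4 was at 17.7, 18.0, 16.6 and 16.0 FPKM against 21.4, 20.2, 21.3 and 20.5 FPKM (-17.9%, limma adjusted p = 0.00106). The annotated spans of Gbp4 and Gbp9 overlap on the same strand over 23773 bases, and those of Igtp and Irgm2 over 7974 bases. The division of fragments within these pairs is therefore less certain than for genes such as Irgm1, Gbp2 or Gbp5, whose spans overlap no other gene of the family.

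Of the other members on chromosome 3, Gbp7 was at 15.0, 14.9, 13.5 and 14.6 FPKM against 17.4, 15.9, 16.7 and 16.2 FPKM, a change of -12.4% (log2 difference -0.18, SE 0.04, limma adjusted p = 0.00901). Gbp5, known for promoting inflammasome assembly, was at 22.7, 24.0, 22.6 and 22.6 FPKM against 26.6, 24.9, 24.7 and 25.5 FPKM, a change of -9.66% (log2 difference -0.14, SE 0.03, limma adjusted p = 0.00763). Both calls depended on the scaling, since rescaling the libraries to an equal sum without short RNA genes left Gbp7 at a log2 difference of -0.12 (adjusted p = 0.0824 by limma) and Gbp5 at -0.08 (0.189). Gbp7 also missed the threshold in the 5 libraries with under 30% of short RNA signal (limma adjusted p = 0.0585), where its log2 difference was again -0.18.

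Gbp3 was the one member not called. It was at 16.0, 16.0, 16.1 and 16.1 FPKM in Nrp-1+ iTreg and at 16.9, 16.5, 15.7 and 17.2 FPKM in Nrp-1- iTreg. The lowest Nrp-1- library lay below all 4 Nrp-1+ libraries, so the groups overlapped. The difference of -3.21% did not exceed the spread (exact two-sided permutation test, p = 0.143), and its 95% interval on the log2 scale ran from -0.11 to 0.02 (limma adjusted p = 0.268). The sign of this log2 difference turned to 0.015 with the rescaling without short RNA genes. Gbp7 and Gbp2, on the same chromosome, had intervals from -0.27 to -0.09 and from -0.38 to -0.19, and the difference between members was not tested.

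**Figure D1:**
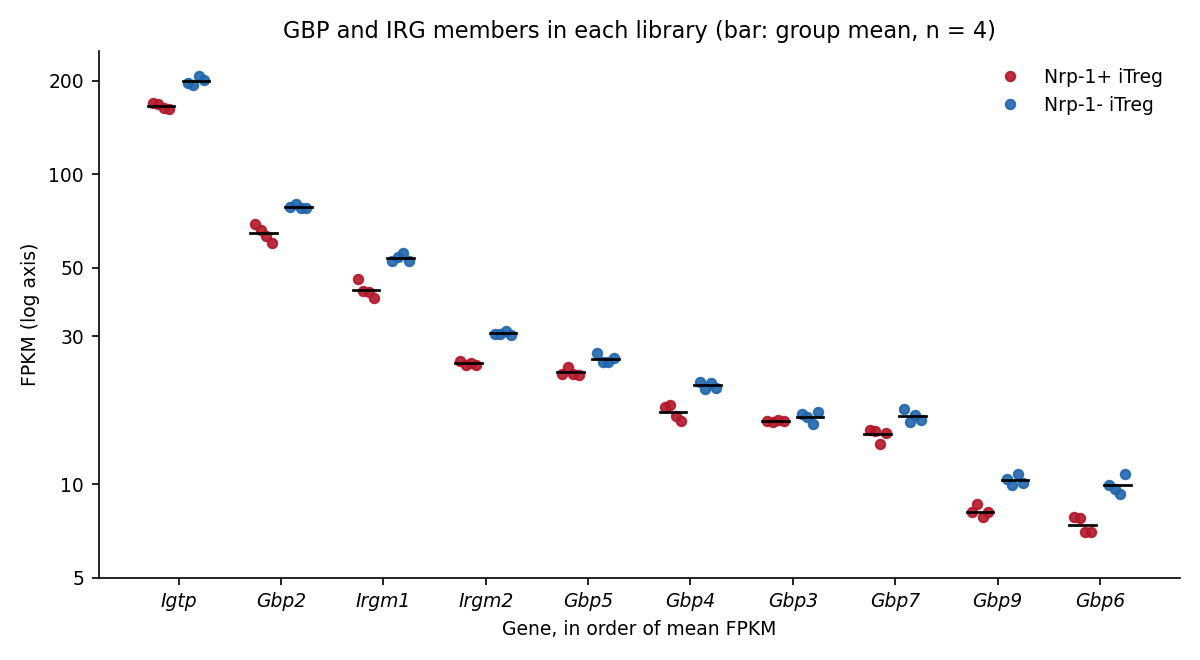
Level of each of the 10 GTPase genes (horizontal axis, in order of mean FPKM) in FPKM on a log axis, with a point for each of the 4 libraries of a group (red for Nrp-1+, blue for Nrp-1-) and a bar for the group mean. For 9 genes every red point lies below every blue point, and for Gbp3 the groups overlap.

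In counts, 9 of the 10 members were called lower and 0 higher by limma at an adjusted p under 0.05, where 20.0% of all 10467 tested genes were called lower, 20.9% higher and 40.9% either way. With the rescaling without short RNA genes 7 members were called lower, beside 1066 of 10207 tested genes called lower and 2956 called higher. For 9 members all Nrp-1+ libraries were below all Nrp-1- libraries (exact permutation p = 0.0286 for each), as for 19.3% of the tested genes, and for 0 members all were above, against 20.2%. The 10 members passed the filter on low values in both groups, their lowest value being 7.02 FPKM. Their median log2 difference was -0.28, and that of all tested genes was -0.02. Relative to the 2093 genes called lower, whose median was -0.18, Gbp6 changed more than 93.5% of them and Igtp more than 78.2%, whereas Gbp5 changed more than 26.9%. No member changed by as much as 2-fold.

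In FPKM, Igtp was above Gbp2, Irgm1, Irgm2 and Gbp5, in that order, in each group, with no overlap between neighbours. Gbp4 came next in both groups. It overlapped Gbp3 in Nrp-1+ iTreg, and there Gbp3 stood above Gbp7 without overlap. In Nrp-1- iTreg the ranges of Gbp7 and Gbp3 overlapped. Gbp9 and Gbp6, the lowest pair, overlapped in both groups. Igtp exceeded 95.2% of the tested genes in mean FPKM and Gbp6 35.1%, so the members spanned much of the range of expressed genes. The 3 IRG genes summed to 233 ± 6.29 FPKM in Nrp-1+ iTreg, against 284 ± 7.38 FPKM in Nrp-1- iTreg (-17.9%), and the 7 GBP genes to 150.8 ± 6.04 FPKM against 178 ± 2.04 FPKM (-15.4%). Igtp made up 43.3% and 43.2% of the sum of all 10.

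Other genes of the family were read from a list of 19 symbols, of which 17 were in the table and 10 passed the filter. Of these, 6 were lower, 0 were higher and 4 were not called, with a median log2 difference of -0.17. Among all tested genes 20.0% were lower and 20.9% higher. Ifi47 (Irg47), an effector IRG, was at 152.6 to 158.7 FPKM in Nrp-1+ iTreg and 181 to 189 FPKM in Nrp-1- iTreg, so that Igtp and Ifi47 were the highest of the family in both groups. Ifi47 fell with no overlap (-16.1%, limma adjusted p = 5.79e-05). Iigp1 (Irga6), the effector IRG best studied on parasite vacuoles, was at 21.6 to 23.3 FPKM against 28.7 to 29.9 FPKM (-23.8%, limma adjusted p = 3.7e-05). Gbp8, which overlaps Gbp4 and Gbp9 on chromosome 5, was at 9.48 to 11.1 FPKM against 12.9 to 14.6 FPKM (-24.6%, limma adjusted p = 0.000871).

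Near-identical copies made 3 of the remaining tested family values uncertain. Tgtp1 and Tgtp2 share 89.4% of the 50-base words of Tgtp1, and 9930111J21Rik1 shares 76.2% of its words with 9930111J21Rik2. Tgtp2 was called lower (-18.0%, limma adjusted p = 0.000877) and Tgtp1 was not (-5.35%, adjusted p = 0.251), which cannot be read as a difference between them. 9930111J21Rik1 was called lower (-17.2%, limma adjusted p = 0.00557), but not in the 5 libraries with little short RNA signal (adjusted p = 0.0663), where its log2 difference was -0.24 against -0.26. Gm12250 (Irgb10), which acts with GBPs on bacteria, was at 27.8 against 29.6 FPKM (-6.09%, limma adjusted p = 0.0281). Its log2 difference of -0.09 was -0.03 with the rescaling without short RNA genes (adjusted p = 0.620), -0.14 with the correction for GC content and length (0.105) and -0.11 in the 5 libraries (0.0716), and the call was lost in each. It was also lost without Nrp-1+ iTreg replicate 2 (0.0695) or 3 (0.0728) or Nrp-1- iTreg replicate 3 (0.0688) or 4 (0.0732). Irgq (-3.87%, limma adjusted p = 0.439), Gm4951 (14.0%, 0.400) and Irgc1 (22.1%, 0.0799) were not called, although Irgc1 passed as higher without the trend in eBayes (0.0379) and with the rescaling (0.0424). Gbp10 and Gbp11, under the filter, were lower when limma was run without that filter (adjusted p = 0.00415 and 0.0146). Gbp10 shares 70.6% of its 50-base words with Gbp6, so its value is uncertain too.

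**Figure D2:**
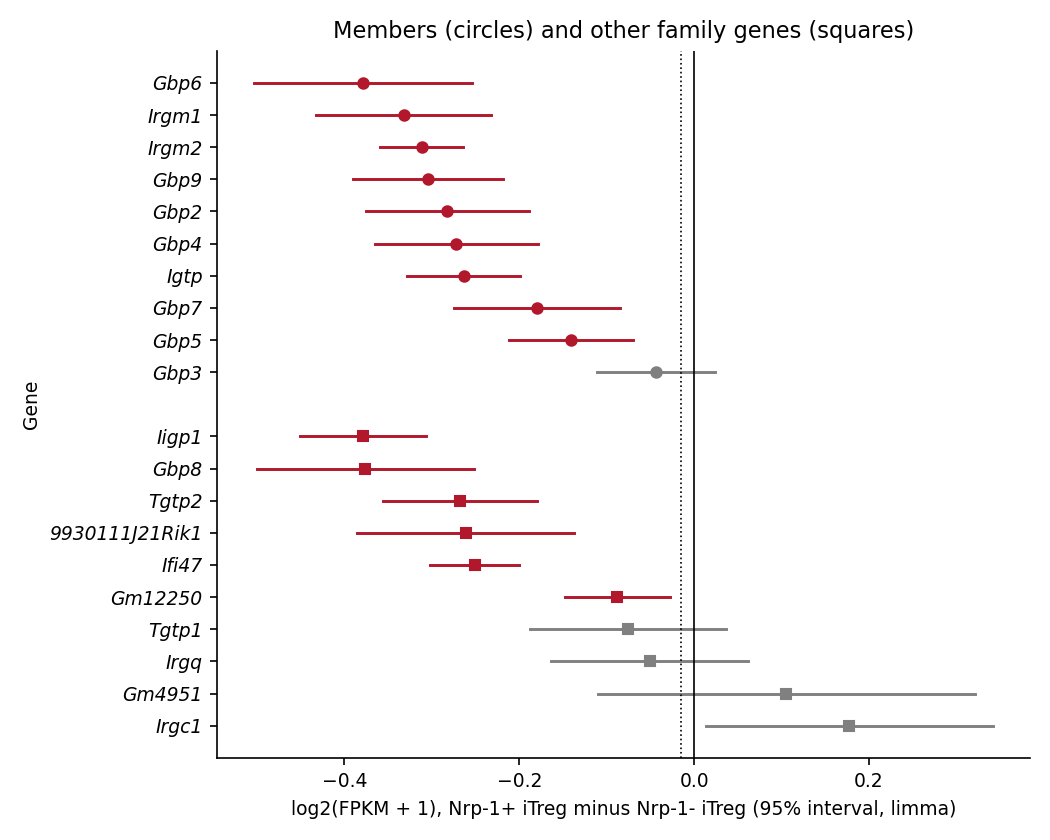
Log2 difference of log2(FPKM + 1), Nrp-1+ minus Nrp-1- iTreg, with its 95% interval by limma, for the 10 members (circles) and the 10 other family genes that passed the filter (squares), red where called and grey where not, with a dotted line at the median of all tested genes. The intervals are not adjusted for the number of genes. The intervals of 9 members lie below 0, that of Gbp3 reaches across 0, and the other family genes range from -0.38 (Gbp8 and Iigp1) to 0.18 (Irgc1).

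The interferon pathway, known to induce these genes, was read from ligand to factor, with lists that were set down for this comparison with earlier results known. Whether it sets their levels in these cells was not tested. Ifng, the gene of interferon-γ, was listed at 0 to 0.145 FPKM in Nrp-1+ iTreg and at 0 to 0.101 FPKM in Nrp-1- iTreg, and Ifnb1 was listed at 0 in all 8 libraries. Among receptors and kinases, 4 of 7 tested genes were lower and 0 higher, beside 20.0% and 20.9% of all tested genes. Ifngr1, the ligand-binding chain of the interferon-γ receptor, was at 166 to 173 FPKM against 200.1 to 205 FPKM (-15.8%, limma adjusted p = 3.38e-05). Jak1, which serves type I and type II interferon receptors, was at 173 to 181 FPKM against 199 to 207 FPKM (-12.3%, limma adjusted p = 0.000329, and 0.0614 with quantile normalization). Ifnar1 was lower as well (-11.3%, limma adjusted p = 0.00184). The call of Ifngr2 (-6.70%, limma adjusted p = 0.0397) was lost without Nrp-1+ iTreg replicate 2, 3 or 4 or Nrp-1- iTreg replicate 1, 2 or 3, with adjusted p values from 0.0750 to 0.0977, with the rescaling (0.551) and in the 5 libraries (0.335). Tyk2, at -7.18% (limma adjusted p = 0.0518), was called lower under 7 alternatives, among them those without Nrp-1+ iTreg replicate 4 (0.0440) and without Nrp-1- iTreg replicate 2 (0.0187). Jak2 stood at 42.9 ± 1.92 FPKM against 43.0 ± 1.23 FPKM (limma adjusted p = 0.920).

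Of 10 tested transcription factors of the pathway, 7 were lower and 0 higher, beside 20.0% and 20.9% of all tested genes. Their median log2 difference was -0.12. Irf1, which binds the element printed above, was at 85.0 to 88.0 FPKM in Nrp-1+ iTreg and 109 to 116 FPKM in Nrp-1- iTreg. The groups lay far apart beside their spread (-22.6%, log2 difference -0.37, limma adjusted p = 1.02e-05). Nlrc5, the activator of MHC class I genes, changed by -19.5% (limma adjusted p = 0.000496), and Irf9, a DNA-binding partner of Stat2, by -13.0% (adjusted p = 0.000255). Stat2 (-1.92%, limma adjusted p = 0.771), Irf3 (-2.52%, 0.396) and Irf8 (0.320%, 0.944) were not called. With the rescaling without short RNA genes, 4 of the 10 factors were called lower. The calls of Irf2 (-6.99%, limma adjusted p = 0.0275) and Irf7 (-8.87%, 0.0229) were the least stable. That of Irf2 was lost without any 1 of Nrp-1+ iTreg replicates 1, 3 and 4 and Nrp-1- iTreg replicates 1, 2 and 3 (highest adjusted p 0.0708), and that of Irf7 without Nrp-1- iTreg replicate 2 (0.0553) or 4 (0.0611). Both were also lost in the 5 libraries with little short RNA signal (limma adjusted p = 0.104 for Irf2 and 0.145 for Irf7), where the log2 differences were -0.11 against -0.10 and -0.10 against -0.12.

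Of 7 inhibitors of the pathway 2 were lower and 0 higher, where 20.0% of all tested genes were lower. Socs3 changed by -8.24% (limma adjusted p = 0.00238) and Usp18, a brake on type I interferon receptors, by -28.3% (adjusted p = 0.0177). Socs1, which blocks Jak kinases, was at 126 ± 8.63 FPKM against 115 ± 5.33 FPKM (limma adjusted p = 0.0749). The call of Socs3 was lost with the rescaling without short RNA genes (limma adjusted p = 0.157) and that of Usp18 in the 5 libraries (0.203), whereas Socs1 was called higher with the rescaling (0.00598) and without Nrp-1+ iTreg replicate 1 (0.0436). Ptpn2 (-6.50%, limma adjusted p = 0.0846) was called lower with the GC and length correction (0.0118) and without Nrp-1+ iTreg replicate 2 (0.0318).

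Other genes that interferons induce formed lists with medians of -0.10 (antiviral) and -0.08 (antigen presentation) on the log2 scale. Of 18 listed antiviral genes 9 passed the filter, and only Ifit1 was called, at 1.02 against 1.52 FPKM (limma adjusted p = 0.0235). Of all tested genes 40.9% were called. The call of Ifit1 was lost without Nrp-1+ iTreg replicate 1 or 2 or Nrp-1- iTreg replicate 1, 2 or 3, and in the 5 libraries (0.189). Its log2 difference was -0.27 to -0.32 with those libraries left out and -0.28 in the 5, against -0.32 in the reported fit. In turn, 3 antiviral genes were called lower without Nrp-1+ iTreg replicate 3 and 2 without replicate 4. Among 9 antigen presentation genes 5 were lower (B2m, Tapbp, Psmb10, H2-K1 and H2-D1), by -5.28% to -9.56%, beside 20.0% of all tested genes. With quantile normalization 0 of the 9 were called lower. There the log2 differences of Tapbp and Psmb10 were -0.09 and -0.11, against -0.08 and -0.09 in the reported fit. Those of B2m, H2-K1 and H2-D1 were -0.01, 0.05 and -0.02. With the rescaling 1 was lower, and 3 were higher by limma, Tap2 (adjusted p = 0.0190), Psmb8 (0.00301) and Psmb9 (0.000626). Psmb9 was also called higher without Nrp-1- iTreg replicate 2 (0.0381). Tapbp lost its call in the 5 libraries with little short RNA signal (limma adjusted p = 0.0918), where its log2 difference was again -0.08. The call of Psmb10 was lost without any 1 of Nrp-1+ iTreg replicates 1, 2 and 3 and Nrp-1- iTreg replicates 2, 3 and 4 (limma adjusted p from 0.0577 to 0.0925) and without the trend in eBayes (0.0534). Without Nrp-1+ iTreg replicate 3 the count was 2.

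**Figure D3:**
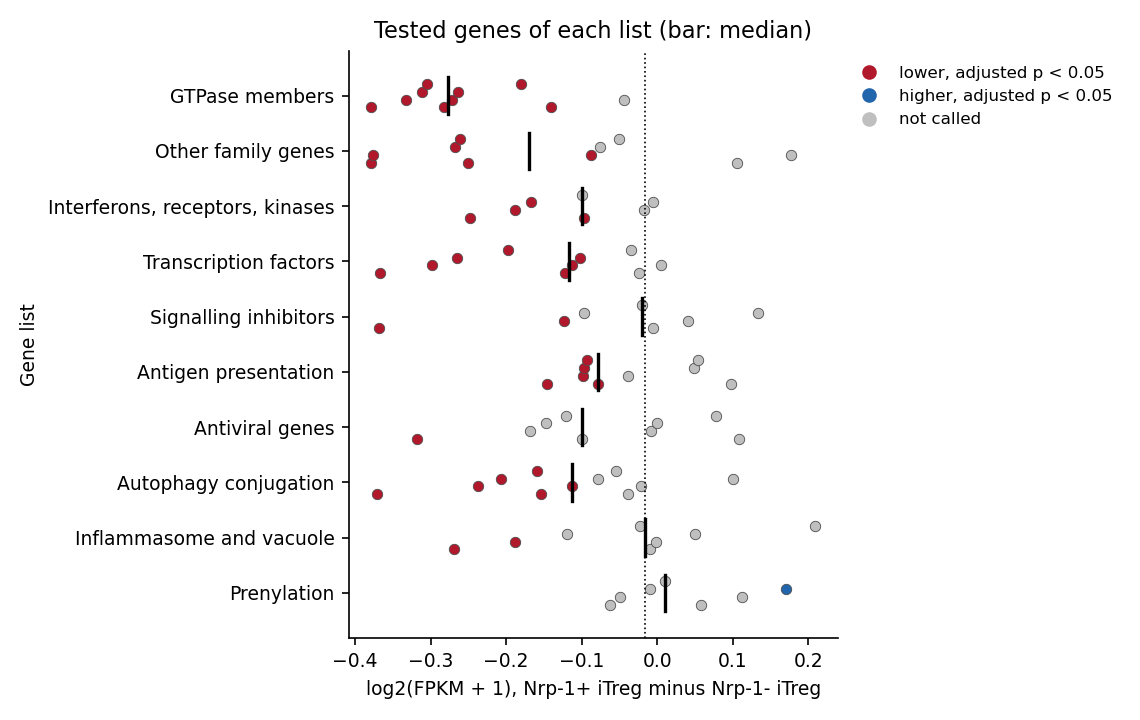
Log2 differences of log2(FPKM + 1), Nrp-1+ minus Nrp-1- iTreg, for each tested gene (point, red where called lower, blue where called higher) of the members and of 9 related lists, with list medians as bars and a dotted line at the median of all tested genes. The members have a median of -0.28, against -0.12 for the transcription factors and -0.10 for the receptors and kinases and for the antiviral genes.

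Proteins that place or anchor the GTPases formed further lists. The Atg8 conjugation genes of autophagy direct IRG and GBP proteins to vacuoles, and 6 of 11 were lower and 0 higher (median log2 difference -0.11). Among all tested genes 20.0% were lower and 20.9% higher. Atg16l1, the scaffold of the conjugation complex, was at 9.43 to 10.1 FPKM against 12.0 to 13.7 FPKM (-24.5%, limma adjusted p = 0.000249), and Gabarapl2 (Gate-16), which IRG placement needs, at 135 to 145 FPKM against 159 to 177 FPKM (-15.3%, adjusted p = 0.00182). Gabarap, Map1lc3b, Atg12 and Atg3 were the other 4, of which Atg3 lost its call with the rescaling and in the 5 libraries (limma adjusted p = 0.367 and 0.165) and Gabarap with quantile normalization (0.126). The log2 difference of Gabarap was -0.15 there, against -0.16 in the reported fit. Atg5 (-3.93%, limma adjusted p = 0.232) and Atg7 (-1.74%, 0.768) were not called. Of 8 tested inflammasome and vacuole genes 2 were lower, near the share of 20.0% of all tested genes. They were the autophagy receptor Sqstm1 (112 ± 3.06 FPKM against 135.6 ± 3.26 FPKM, limma adjusted p = 0.000113) and the ubiquitin ligase Trim21 (-13.0%, adjusted p = 0.00328). Casp1, Casp4, Aim2, Pycard, Gsdmd and Tax1bp1 were not called, and Nlrp3 was under the filter. Aim2, a DNA sensor, was at 7.32 against 6.21 FPKM (limma adjusted p = 0.0629) and was called higher with array weights (0.0496), with the rescaling (0.00613), without Nrp-1+ iTreg replicate 4 (0.0380) and without Nrp-1- iTreg replicate 3 (0.0257). Pycard, the inflammasome adaptor, was called higher with the rescaling (limma adjusted p = 0.0132), and Casp1 was called lower without Nrp-1- iTreg replicate 2 (0.0425), where its log2 difference was -0.19 against -0.12. Of 7 genes of protein prenylation, the step that anchors Gbp2 and Gbp5, 1 was higher (Icmt, 14.0%, limma adjusted p = 0.00954) and 0 lower. That is no more than the share of all tested genes that were higher, 20.9%. The call of Icmt was lost in the 5 libraries with little short RNA signal (adjusted p = 0.0921), where its log2 difference of 0.17 did not change at 2 decimals. The farnesyltransferase subunit Fnta was called lower without Nrp-1+ iTreg replicate 1 (limma adjusted p = 0.0103), and Fntb was called higher without Nrp-1- iTreg replicate 3 (0.0153) and with the rescaling (0.0159).

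Values of other programmes moved with the same groups. All 14 proliferation genes were higher in Nrp-1+ iTreg and summed to 2011 to 2064 FPKM, against 1107 to 1129 FPKM in Nrp-1- iTreg. Of 6 Th1 genes 2 were higher, Il18r1 (29.5 ± 0.978 FPKM against 15.4 ± 0.530 FPKM, limma adjusted p = 4.41e-07) and Il18rap (adjusted p = 0.000355), and 0 were lower. Among all tested genes 20.9% were higher and 20.0% lower. Markers of T cells and Treg were high in both groups (7 genes, summed 1480 to 1513 FPKM against 1511 to 1583 FPKM). Of the 7, 3 were higher (Foxp3, Il2ra and Ikzf2), 2 were lower (Cd3d, -12.0%, limma adjusted p = 0.00370, and Ctla4, -10.2%, adjusted p = 0.000938) and Cd3e and Cd4 were not called. Foxp3 was at 116 ± 3.72 FPKM against 108.8 ± 1.20 FPKM (limma adjusted p = 0.0245) and Cd4 at 315 ± 4.77 FPKM against 325 ± 11.7 FPKM (adjusted p = 0.255). Of the CD8 markers, Cd8a was at most 0.111 FPKM and Cd8b1 was lower in Nrp-1+ iTreg (7.86 against 10.0 FPKM, limma adjusted p = 0.0119).

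Markers of most other blood cell types were at or near 0. All 4 B cell markers stayed under 1 FPKM (summed 0.388 to 0.867 against 0.193 to 0.611 FPKM, Ms4a1 at 0 in all libraries), as did all 4 dendritic cell markers (0.224 to 0.377 against 0.104 to 0.204 FPKM). The 3 NK cell markers were under 1 FPKM each, with sums of 0.751 to 1.02 against 0.464 to 0.765 FPKM. Of 5 macrophage and monocyte markers 4 were under 1 FPKM, among them Csf1r and Cd14, and the sum of 6.50 to 7.25 against 5.42 to 6.30 FPKM was nearly all Itgam. The erythroid marker Hba-a1 was at 5.48 to 7.53 against 2.01 to 3.25 FPKM. The part of proliferation, of the short RNA signal and of these markers in the GTPase differences was not tested. In RNA from sorted populations, fewer cells that express a gene and less of its RNA per cell cannot be told apart.

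Within a group the members did not move as one block. After the group means were removed, the 45 pairs of members had a median Pearson r of 0.34 over the 8 libraries, from -0.52 (Gbp3 with Irgm2) to 0.84 (Gbp2 with Irgm1), and 34 pairs were above 0. These values share libraries and depth and are given as a description. In Nrp-1+ iTreg 7 of 10 members were above their group mean in replicate 1 and in replicate 2, and 2 in replicate 3 and in replicate 4. In Nrp-1- iTreg the numbers were 6, 2, 6 and 4. The mean deviation of a library was at most 0.04 on the log2 scale, beside a median difference between the groups of -0.28.

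**Figure D4:**
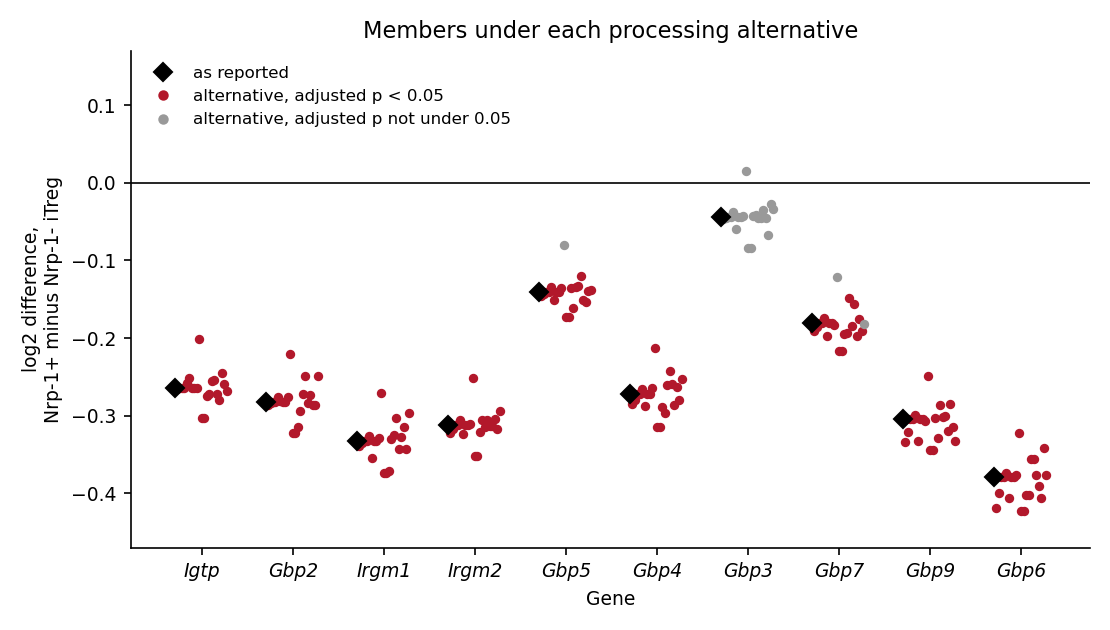
Log2 difference, Nrp-1+ minus Nrp-1- iTreg, of each member (horizontal axis) under the reported fit (diamond) and every alternative of the limma fit (points, red where the adjusted p was under 0.05 and grey where not). The points of 9 members stay below 0 throughout, with Gbp5 losing the call under 1 alternative and Gbp7 under 2, and those of Gbp3 run from -0.08 to 0.02.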

How the data were processed

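Per the labels, RNA was extracted from the sorted cells of both groups, 4 libraries each. The authors deposited FPKM from Cufflinks, after processing of the raw reads on the CLC Genomics Workbench, as 1 value per gene symbol and library. GRCm38 (mm10) comes from the submitters' processing notes, and aligner settings and annotation are not given in the sources used here. The library kit and the IL-2 amount differ between labels and methods. FPKM is not a count. Of 23361 genes 7072 were listed at 0 in every library.

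For the 10467 genes with a mean of at least 1 FPKM, log2(FPKM + 1) was fitted in limma 3.58.1 (lmFit, eBayes with trend, R 4.3.3), with Benjamini-Hochberg adjustment, called at an adjusted p under 0.05. On this scale changes of low genes are understated. Percent changes are of group mean FPKM. Single genes were also tested by exact two-sided permutation (Python 3.11.15, scipy 1.17.1, numpy 2.4.6, pandas 2.3.3), and plots used matplotlib 3.10.9. On simulated data for this comparison (10467 genes), the fit recovered 28% of the genes changed by 0.15 (log2), 60% of those changed by 0.25 and 94% of those changed by 0.5, and made 3 false calls. Whether these rates hold for the measured libraries, where 40.9% of the tested genes were called, was not tested. Depth came from FPKM steps under 0.3. At their lowest, members had about 560 (Gbp6) to 6175 (Igtp) fragments in a library, a counting error of about 4.23% to 1.27%. This covers counting error only.

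The members and lists were chosen with earlier results of these data known. Named genes are the members, the listed genes and the 5 genes most like the members. Single values of 2 listed genes are not reported, and Dixon's test was not run on them. GENCODE M21 gave positions, GC content and length, and RefSeq gave promoters. The alternatives used other pseudocounts (0.1 and 0.5), other filters (none, or 5 FPKM), size factors, quantile normalization, a replicate block, no trend, array weights, rescaling without short RNA genes, a GC and length correction (splines with 5 degrees of freedom), the ratio of means and each library left out. The fit of the 5 libraries with under 30% short RNA signal was chosen after seeing the data.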

Additional observations from a re-analysis of the deposited data

Results flagged for a closer look

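Over 216 groups of 4 libraries (108 genes), 5 held a library far from the other 3 by Dixon's test, where chance gives about 1 in 20, or 10.8. Among the members, Gbp5 was at 24.0 FPKM in Nrp-1+ iTreg replicate 2, against 22.6 to 22.7 FPKM in the others. Pycard was at 78.5 FPKM in the same library, against 83.8 to 84.2 FPKM, and Pggt1b at 8.91 FPKM, against 6.99 to 7.31 FPKM. Fnta was at 38.4 FPKM in Nrp-1+ iTreg replicate 1, against 34.3 to 34.6 FPKM. Cdk1 was at 28.0 FPKM in Nrp-1- iTreg replicate 2, against 26.5 to 26.7 FPKM. Without Nrp-1+ iTreg replicate 2, 9 members were again called lower by limma.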

How the results depend on the processing

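Of the 10 members 9 were called lower in the reported fit, 7 with the rescaling without short RNA genes, 8 in the 5 libraries with little short RNA signal, and 9 under each of the other limma alternatives, those leaving out 1 library included (9 to 9). None was called higher under any of them. Of 220 member values, with those of the ratio of group means and its exact permutation test counted in, 217 kept their side of the threshold and 3 lost the call. The sign of Gbp3, which was not called, turned with the rescaling (0.015). All tested genes gave 2093 lower and 2189 higher. The lower count was 1066 with the rescaling and 1280 in the 5 libraries, and it ranged from 1770 to 1912 with 1 library left out (higher from 1953 to 2046). Higher genes were 51.1% of the calls, 73.5% with the rescaling and 40.0% with the GC and length correction (1840 higher, 2756 lower), or 41.9% with that correction and the replicate block. No scaling moved the median of all genes by over 0.1. Over the related lists, 17 genes were higher (16 to 25) and 33 lower (22 to 38), or 17 to 19 and 28 to 33 with 1 library left out. Of 2045 values of related genes 1934 were unchanged in call, 77 lost and 33 gained it, and 1 reversed, H2-K1 with quantile normalization (0.052, limma adjusted p = 0.850). Libraries with the same replicate number did not deviate together (correlations of -0.54, -0.02, 0.01 and -0.50, and 0 of 4 correlated best with their own number). Without short RNA genes the correlations were -0.04, -0.06, -0.08 and -0.11. The labels do not say whether libraries with the same number share a culture, and these few correlations cannot decide it. With the replicate block, 1931 genes were higher and 1675 lower, 9 members were lower, and 0 of the antigen presentation genes were called. Counting error at the lowest library was largest for Gbp6 (about 4.23%) and Gbp3 (about 3.92%). Gbp6 was called under every limma alternative, and the part of depth in the result of Gbp3 was not tested. The fits could miss changes as small as that of Gbp3.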

Other observations

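The genes outside the lists whose pattern over the 8 libraries was most like the mean of the members were Acpp (Pearson r 0.996), Enpp1 (0.992), Mgarp (0.991), Suv420h1 (0.991) and Usp24 (0.990). Of 10349 genes compared, 217 (2.10%) had an r of at least 0.95. The 8 libraries form 2 groups that the members separate, so this likeness largely repeats the difference between the groups and is given as a description. Acpp was at 3.59 to 4.03 FPKM in Nrp-1+ iTreg and at 5.11 to 5.37 FPKM in Nrp-1- iTreg. Mgarp was at 27.1 to 32.2 FPKM against 39.5 to 42.8 FPKM.

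Gbp3 varied by 0.362% (coefficient of variation) over the 4 Nrp-1+ iTreg libraries and by 3.84% in Nrp-1- iTreg. Its counting error was about 3.92% at its lowest, above the 1 value and near the other. Whether the spread differed between the groups was not tested. Gbp2 varied by 6.00% and 1.35%, and Irgm1 by 6.13% and 2.92%.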
